A study of Mus musculus with 5 samples.

Results

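The antioxidant and iron storage genes described here were followed across the 5 single-cell RNA sequencing libraries of a mouse salivary gland organoid (mSGO) study. The set was chosen by gene name, with earlier results of these data known, and the rule itself uses no measured value. Its 10 members are Slc7a11, Gclc, Gclm, Txnrd1, Srxn1, Prdx1, Nqo1, Hmox1, Ftl1 and Fth1, out of 31053 genes in the list used for the 7-day and tissue libraries and 32285 genes in the list used for the 11-day library. All 10 were present in both lists, which shared 30406 genes.

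The study asked how submandibular gland organoids respond to photon and proton irradiation, and how organoids compare with the gland they come from. The 7-day mSGOs were grown in Matrigel from glands of 4 C57BL/6 animals aged 8 to 12 weeks. They were left untreated (control), or given 7 Gy of photons or 7 Gy of protons in the plateau of the beam on day 5, and all 3 groups were collected on day 7. Control mSGOs collected on day 11 (C57BL/6, of the same age by the study's methods) and freshly isolated submandibular gland tissue of C57BL/6 animals aged 8 to 12 weeks completed the series. The mSGO medium contained EGF, FGF2, N2, insulin, dexamethasone, Y27632, R-spondin1 and Wnt3a, and mSGO cells were sorted as propidium iodide-negative, so these libraries hold cells that excluded the dye. Each group was 1 library, in which the animals are not told apart. A difference between groups is therefore a difference between 2 libraries, with no replicate behind it and no test.

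The libraries held 7151 (control), 19189 (photon), 18635 (proton), 14266 (11-day) and 13547 (tissue) barcodes. Filters on genes per barcode, mitochondrial share and doublets kept 6494, 15610, 15325, 9484 and 1402 of them, with 15804289, 25349444, 24794556, 32077807 and 5932095 unique molecular identifiers (UMIs, each counting 1 captured RNA molecule). A kept barcode held a median of 898.5 to 1049 UMIs in the 7-day libraries, 3025 in the 11-day library and 2385.5 in tissue. Malat1, a nuclear RNA abundant in intact cells, made up at least 1% of UMIs in only 16.0% of control, 10.0% of photon, 8.95% of proton and 11.3% of tissue barcodes, against 98.8% of 11-day barcodes. Results were therefore also computed for barcodes with at least 1% Malat1. Pairs of libraries had between 3 and 69 kept barcodes in common. The 11-day library was run separately and counted with other software, so day, run and software cannot be told apart. Basal duct markers summed to between 8650 and 9576 counts per 1000000 UMIs (CPM) in the 7-day libraries, and to 4200 CPM at 11 days. Tissue held acinar markers at 560489 CPM, more than the sum of all other genes, and only 32.9 CPM of basal duct markers. Mucl2 alone held 524622 CPM of this acinar sum.

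Cells import cystine through Slc7a11 and build glutathione from its cysteine, with Gclc and Gclm forming the enzyme of the first step. A second thiol system runs through thioredoxin reductase (Txnrd1), peroxiredoxins (Prdx1) and sulfiredoxin (Srxn1), which repairs over-oxidised peroxiredoxin. Nqo1 reduces quinones, Hmox1 opens heme and frees its iron, and Ftl1 and Fth1 are the light and heavy chains of ferritin, the shell that stores iron. Many of these genes are known targets of NRF2, a transcription factor that KEAP1 holds back in resting cells and that binds antioxidant response elements in promoters.

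RefSeq promoters (GRCm38.p6, 250 bases before to 50 bases after a transcription start) were found for 8 of the 10 genes, with no entry for Gclc and Hmox1. The core letters of the antioxidant response element, TGACNNNGC on either strand, occurred in 4 of the 8 genes (Gclm, 1 start of Txnrd1, Srxn1 and Prdx1), against 3781 of all 27025 genes with a promoter and 12.4% of all 32851 promoters. A variant, TGAGNNNGC, occurred in 3 of the 8 (Slc7a11, Srxn1 and Prdx1), against 5364 of these genes and 17.6% of promoters. Either form was present in 5 of 8 genes, against 30.8% of genes. Where the free letters are TCA, a match also holds the site TGAGTCA (or TGACTCA on the other strand) of the AP-1 factors, as in both Prdx1 and the second Srxn1 window. The 41-base windows (positions on GRCm38.p6) around the matches upstream of the start are shown because 5 of the genes hold one or the other form, with the matched letters in capitals, 5′ to 3′ along each gene's strand.
Slc7a11 (chr3:50443686-50443726, minus strand, match 97 bases before the start): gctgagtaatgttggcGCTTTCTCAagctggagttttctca
Gclm (chr3:122245407-122245447, plus strand, 134 bases before): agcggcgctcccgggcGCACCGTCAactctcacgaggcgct
Txnrd1 (chr10:82859098-82859138, plus strand, 92 bases before): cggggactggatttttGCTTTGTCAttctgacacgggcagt
Srxn1 (chr2:152105350-152105390, plus strand, 158 bases before): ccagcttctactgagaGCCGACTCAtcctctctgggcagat
Srxn1 (chr2:152105463-152105503, plus strand, 45 bases before): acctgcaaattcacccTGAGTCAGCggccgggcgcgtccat
Prdx1 (chr4:116685450-116685490, plus strand, 133 bases before): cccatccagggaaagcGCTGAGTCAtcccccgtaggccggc
All windows but the second of Srxn1 carry the match on the strand opposite to the gene. The distances for Slc7a11 and Txnrd1 are from starts that lie inside the RefSeq spans of these genes given below. A match describes these letters only and says nothing about binding in these cells.

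After irradiation the 10 genes did not move as one group. Over all kept barcodes Srxn1 was higher with both beams, Gclc and Hmox1 were moderately higher, Nqo1 was lower with both, and Ftl1 was lower mainly with protons. Fth1, Gclm, Txnrd1 and Prdx1 stayed closer to control. Differences are given as the log2 ratio of CPM, with a 95% conditional exact interval, and a ratio of at least 0.5 in size was called past the fold among genes with at least 200 UMIs in both libraries together and at least 20 CPM in the higher one. Intervals cover counting error only. With photons 9 of the 10 genes passed this minimum, and of these 1 (Srxn1) was past the fold upwards and 0 downwards, against 4.76% and 2.33% of 4369 genes. With protons the 9 passing genes again gave 1 higher and 0 lower, against 4.91% and 2.53% of 4355 genes. The counts depended on the setting. Over all 10 genes the proton count was 0 higher and 2 lower (Nqo1 and Ftl1) under median-of-ratios scaling. With at least 2500 genes per barcode it was 2 higher (Hmox1 at 0.73 and Slc7a11 at 0.59) and 2 lower (Nqo1 and Ftl1), with Srxn1 at -0.22. With photons that setting put Slc7a11 (0.69) and Hmox1 (0.55) past the fold upwards and Nqo1 (-0.67) downwards, with Srxn1 at 0.20. The shares of all genes under these alternatives were not computed. The median log2 ratio over all 10 was 0.18 with photons and 0.12 with protons, beside 0.09 and 0.10 over all genes passing. At the shares of the main setting a count of 1 in 9 does not set the list apart from other genes, and the values of single genes carry the description.

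**Figure D1:**
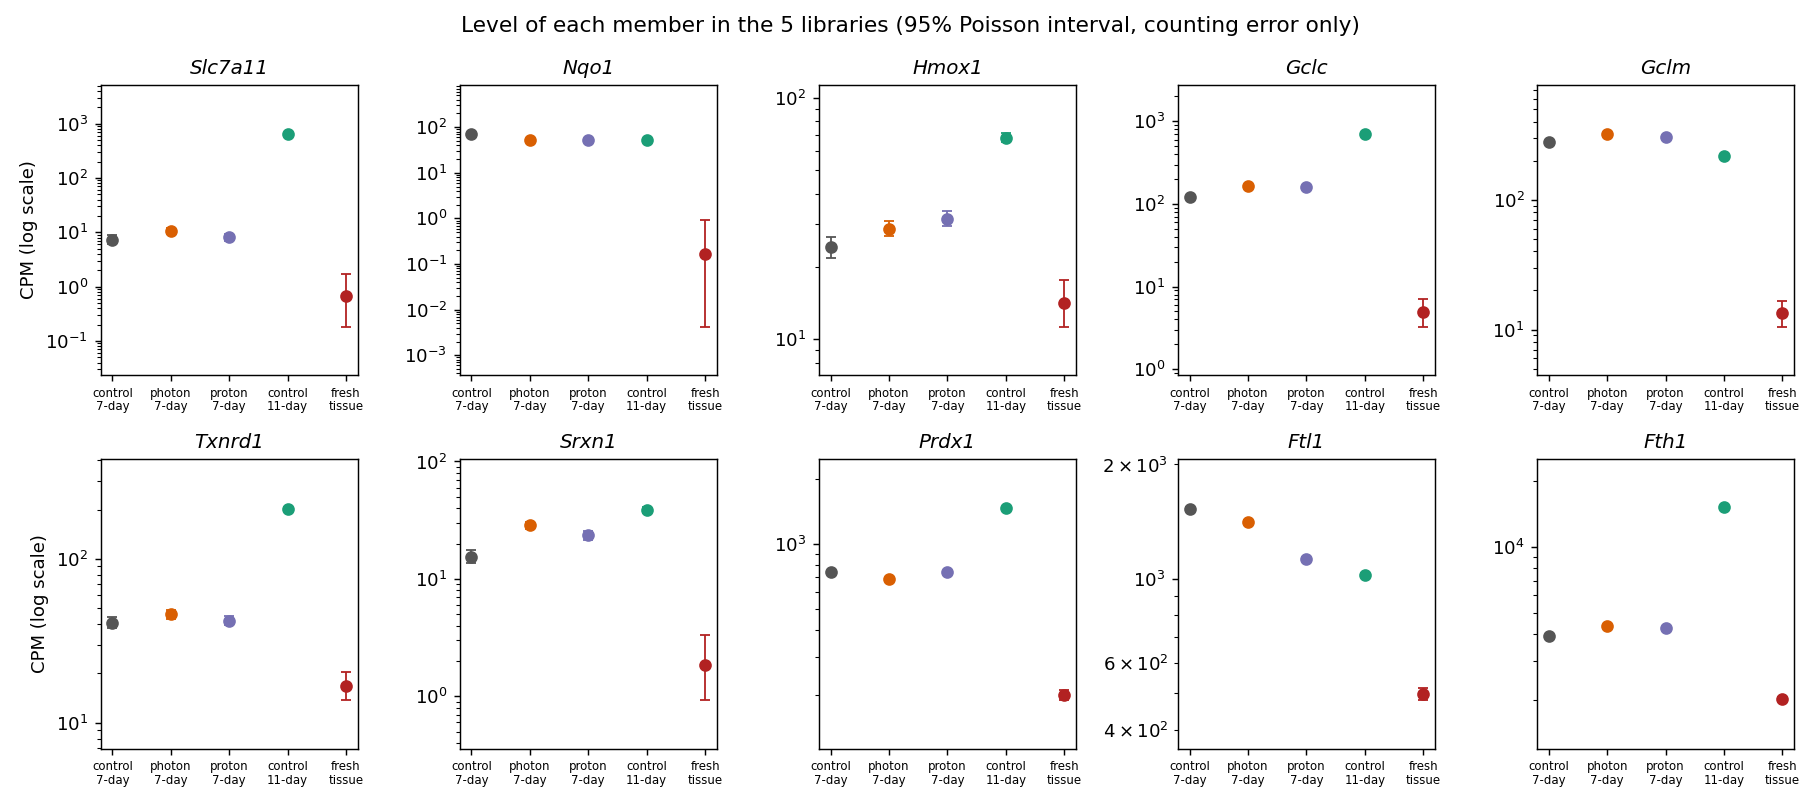
Level of each of the 10 genes in the 5 libraries in CPM (log axis, scale set per gene), 1 point per library with its 95% Poisson interval. The 11-day library is highest for 7 genes, from Srxn1 at 38.7 CPM to Fth1 at 15163 CPM, and tissue is lowest for all 10. Among the 7-day mSGOs Srxn1 runs from 15.5 to 28.6 CPM.

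Cystine import and glutathione synthesis. Slc7a11 (chr3:50364936-50499087, GRCm38.p6, minus strand), the cystine carrier, was measured at 7.34 CPM in control (95% Poisson interval 6.07 to 8.80, 116 UMIs), 10.6 with photons, 8.03 with protons, 656 at 11 days and 0.674 in tissue (4 UMIs). The 11-day library stood far above the rest, and the intervals of control and proton overlapped. Its log2 ratio to control was 0.53 with photons (0.21 to 0.86) and 0.13 with protons (-0.21 to 0.47). Over all kept barcodes the gene did not reach 20 CPM in any 7-day library. The photon value stayed at 0.5 or more in 7 of 12 alternative settings. With at least 1% Malat1 it was 0.76 (0.37 to 1.16), above 98.2% of genes, and the gene passed the minimum at 20.5 CPM with photons.

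Gclc (chr9:77754535-77794489, plus strand), the catalytic subunit of glutamate-cysteine ligase, stood at 120 CPM in control, 163 with photons, 159 with protons, 708 at 11 days and 4.89 in tissue. Both irradiated libraries exceeded control, and their intervals overlapped each other. The log2 ratios were 0.45 (0.37 to 0.52) with photons and 0.41 (0.33 to 0.49) with protons, above 93.5% and 91.3% of all genes passing. In Gclm (chr3:122245487-122267215, plus strand), the regulatory subunit of the same enzyme, the levels were 276, 318, 303, 216 and 13.3 CPM in the same order. The 3 intervals of the 7-day libraries did not overlap, yet the log2 ratios were small, at 0.20 (0.15 to 0.26) and 0.13 (0.08 to 0.19), and the proton value was -0.06 among barcodes with at least 1% Malat1. Thus the catalytic subunit exceeded control by more than the regulatory one with either beam.

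Thioredoxin and peroxiredoxin recycling. Srxn1 (chr2:152105524-152111376, plus strand), the sulfiredoxin that restores peroxiredoxins, was found at 15.5 CPM in control (245 UMIs), 28.6 with photons (726 UMIs), 23.5 with protons (582 UMIs), 38.7 at 11 days and 1.85 in tissue (11 UMIs). None of the 5 intervals overlapped. It was 1.85-fold higher with photons (log2 0.89, 0.67 to 1.10) and 1.51-fold higher with protons (0.60, 0.38 to 0.82), above 99.2% and 96.8% of genes. The result depended on which barcodes were kept. With at least 2500 genes per barcode, the minimum named in the study's methods, 193 control, 245 photon and 218 proton barcodes remained, and the log2 ratios were 0.20 (-0.27 to 0.68) and -0.22 (-0.75 to 0.30) from 67, 90 and 60 UMIs. Among barcodes with at least 1% Malat1 the photon ratio was 0.73 (0.41 to 1.05) and the proton ratio 0.05 (-0.31 to 0.40), and among those below 1% they were 1.04 and 0.93. In that last subset 17.6% and 18.2% of all genes were also higher past the fold, with medians of 0.16 and 0.20.

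Txnrd1 (chr10:82833951-82897724, plus strand), which keeps thioredoxin reduced at the cost of NADPH, was at 40.9, 45.8 and 42.0 CPM in control, photon and proton, 202 at 11 days and 16.9 in tissue. The 3 intervals of the 7-day libraries overlapped. Its log2 ratio to control was 0.17 (0.03 to 0.31) with photons and 0.04 (-0.10 to 0.18) with protons, above 64.0% and 37.4% of genes. Prdx1 (chr4:116685599-116700000, plus strand), a peroxide-reducing enzyme and substrate of sulfiredoxin, was at 737, 686 and 739 CPM, with 1466 at 11 days and 199 in tissue. Control and proton intervals overlapped, and photon lay just below with a log2 ratio of -0.10 (-0.14 to -0.07).

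Quinone and heme metabolism. Nqo1 (chr8:107388225-107403205, minus strand), a quinone reductase often used as a readout of NRF2, was at 69.3 CPM in control, 52.9 with photons, 51.6 with protons, 52.6 at 11 days and 0.169 in tissue, where 1 UMI was found. Control was the highest, and the other 3 organoid libraries overlapped. The log2 ratios were -0.39 (-0.51 to -0.28) and -0.43 (-0.54 to -0.31), which placed Nqo1 above only 3.96% and 3.26% of genes. Its direction was therefore opposite to that of Srxn1 and Gclc in the same libraries. Among barcodes with at least 1% Malat1 the ratios were -0.53 and -0.68, past the fold in both.

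Hmox1 (chr8:75093618-75100593, plus strand), heme oxygenase 1, was at 24.0 CPM in control, 28.7 with photons, 31.6 with protons, 68.3 at 11 days and 14.2 in tissue (84 UMIs). Photon and proton intervals overlapped, and both lay above control, by log2 ratios of 0.26 (0.08 to 0.44) and 0.40 (0.22 to 0.58). With at least 2500 genes per barcode these were 0.55 (0.03 to 1.09) and 0.73 (0.21 to 1.27). With at least 1% Malat1 they were 0.40 (0.11 to 0.70) and 0.59 (0.30 to 0.89), the proton value past the fold.

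Iron storage. Ferritin is built from both chains. Ftl1 (chr7:45457944-45459886, minus strand) was at 1525 CPM in control, 1413 with photons, 1129 with protons, 1025 at 11 days and 495 in tissue, with no overlap between any intervals. Fth1 (chr19:9980600-9985111, plus strand), whose heavy chain oxidises iron for storage, was at 3935, 4333, 4270, 15163 and 2030 CPM, also without overlap. The light chain was lower than control by a log2 ratio of -0.11 (-0.13 to -0.09) with photons and -0.43 (-0.46 to -0.41) with protons, while the heavy chain was higher by 0.14 (0.12 to 0.15) and 0.12 (0.10 to 0.13). Fth1 thus lay near the median gene, above 59.6% and 52.5% of genes. For Ftl1 the proton value was above only 3.10% of genes, and with at least 2500 genes per barcode it was -0.62 (-0.71 to -0.54), past the fold. A near-identical locus, Ftl1-ps1, carried 17.9, 16.9 and 26.1 CPM in control, photon and proton, far below Ftl1 itself, and how reads were shared between the copies was not tested.

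**Figure D2:**
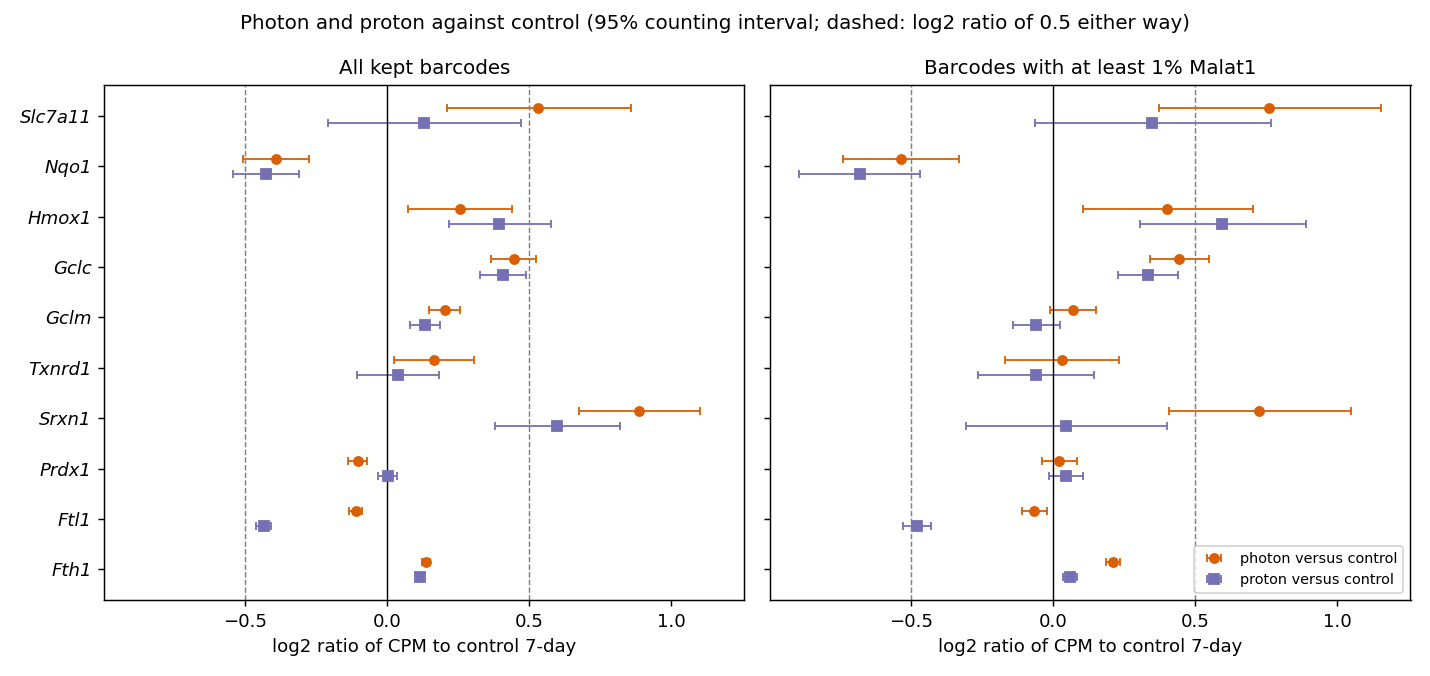
Log2 ratio of CPM to the 7-day control for each gene (points, photons and protons; bars, 95% counting interval; dashed lines, log2 ratio of 0.5 either way), for all kept barcodes on the left and barcodes with at least 1% Malat1 on the right. Srxn1 lies past the upper line for both beams on the left, but its proton value is 0.05 on the right, where Nqo1 lies past the lower line for both. Slc7a11 with photons (0.76) and Hmox1 with protons (0.59) also lie past the upper line on the right.

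The beams were also set against each other. For proton against photon, 0 of the 9 passing genes were past the fold in either direction, beside 0.729% of 4387 genes higher and 0.866% lower. Among barcodes with at least 1% Malat1, however, Srxn1 was past it at -0.68 (-0.98 to -0.39). The log2 ratio was lowest for Slc7a11 at -0.40 (-0.67 to -0.13), which did not pass the minimum, followed by Ftl1 at -0.32 (-0.35 to -0.30) and Srxn1 at -0.29 (-0.45 to -0.13). Prdx1 was higher with protons at 0.11 (0.08 to 0.14), and the intervals of Nqo1, Hmox1 and Gclc included 0. Since both beams are compared with the same control library, their ratios to control are not independent of each other.

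Measures of the libraries moved along with the treatment. The 10 genes of a cycling list summed to 413 CPM in control, 245 with photons and 279 with protons, and the share of barcodes with at least 1% Malat1 was lower in the irradiated libraries, as given above. Acinar markers summed to 31.3 CPM in control, 14.2 with photons and 9.28 with protons, of which Aqp5 held 30.8, 8.95 and 8.27 CPM. Macrophage markers summed to 14.4, 25.9 and 23.4 CPM, but Cd68 made up nearly all of this, and C1qa, C1qb, C1qc, Tyrobp, Adgre1 and Mrc1 had 0 UMIs in all 3. The part of cycling, of the acinar marker level and of Malat1 content in the ratios above was not tested.

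The 7-day barcodes were clustered without the 10 genes, giving 6 clusters shared by all 3 libraries. The libraries filled them unequally, since cluster 3 took 676 barcodes from control (6494 in all), 4021 from the photon library (15610) and 3516 from the proton library (15325), and the part of this in the ratios within clusters was not tested. Clusters 1 to 3 held 11387, 8762 and 8213 barcodes of low content (medians of 862 to 1021 UMIs) without defining markers. Cluster 4 held 5028 barcodes with a median of 2862 UMIs and only 0.0643% Malat1, cluster 5 held 3857 barcodes with 5061 UMIs and 6.62% Malat1, and cluster 6 held 182 barcodes led by Sprr1a and 5 cornifying markers and was cornifying-like. Clusters describe where a value comes from and give no test.

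The Ftl1 value with protons recurred in every cluster, from -0.33 in cluster 3 to -1.31 in cluster 6, and the photon values were also below 0 in all 6 (-0.05 to -0.46). Srxn1 was above control with photons in all 6 clusters, although the interval included 0 in clusters 1, 2 and 6. In cluster 4 it went from 9.20 CPM in control to 24.4 with either beam, a log2 ratio of 1.41 for both. In cluster 5, richest in Malat1, the photon ratio was 0.70 (0.38 to 1.03) and the proton ratio 0.0034 (-0.35 to 0.36). With protons the ratio was 0.32 (-0.26 to 0.93) in cluster 1, 0.44 (-0.19 to 1.12) in cluster 2 and 0.24 in cluster 6, all with intervals that included 0, and 1.05 (0.0081 to 2.30) in cluster 3, from 8 UMIs in control.

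Gclc was highest relative to control in the cornifying-like cluster 6, with 11 UMIs in control, 38 with photons and 77 with protons, or log2 ratios of 1.70 (0.70 to 2.81) and 2.83 (1.91 to 3.89). In cluster 4 its ratios were 0.87 and 0.88, in clusters 1, 2 and 5 they lay between 0.25 and 0.40, and in cluster 3 they were -0.07 (-0.38 to 0.26) and 0.13 (-0.19 to 0.46). Fth1 in cluster 6 stood at 1847 CPM in control, 5337 with photons and 3564 with protons, ratios of 1.53 (1.43 to 1.63) and 0.95 (0.84 to 1.06). Ftl1 in the same barcodes was at 345, 251 and 139 CPM, highest in control and lowest with protons. With 67, 59 and 56 barcodes, cluster 6 may differ in makeup between libraries, which was not tested. In clusters 1 to 3 the Fth1 ratio lay between 0.32 and 0.39 for both beams, and in cluster 5 it was 0.07 and -0.03. Nqo1 in cluster 5 was below control at -0.64 (-0.84 to -0.43) and -0.75 (-0.96 to -0.55). In the other clusters its ratios ran from -0.64 in cluster 3 to 0.07 in cluster 6 with photons, and from -0.45 in cluster 4 to -0.19 in cluster 1 with protons. The Nqo1 intervals included 0 in clusters 1, 2 and 6 for both beams, and in cluster 3 with protons (-0.82 to 0.13).

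**Figure D3:**
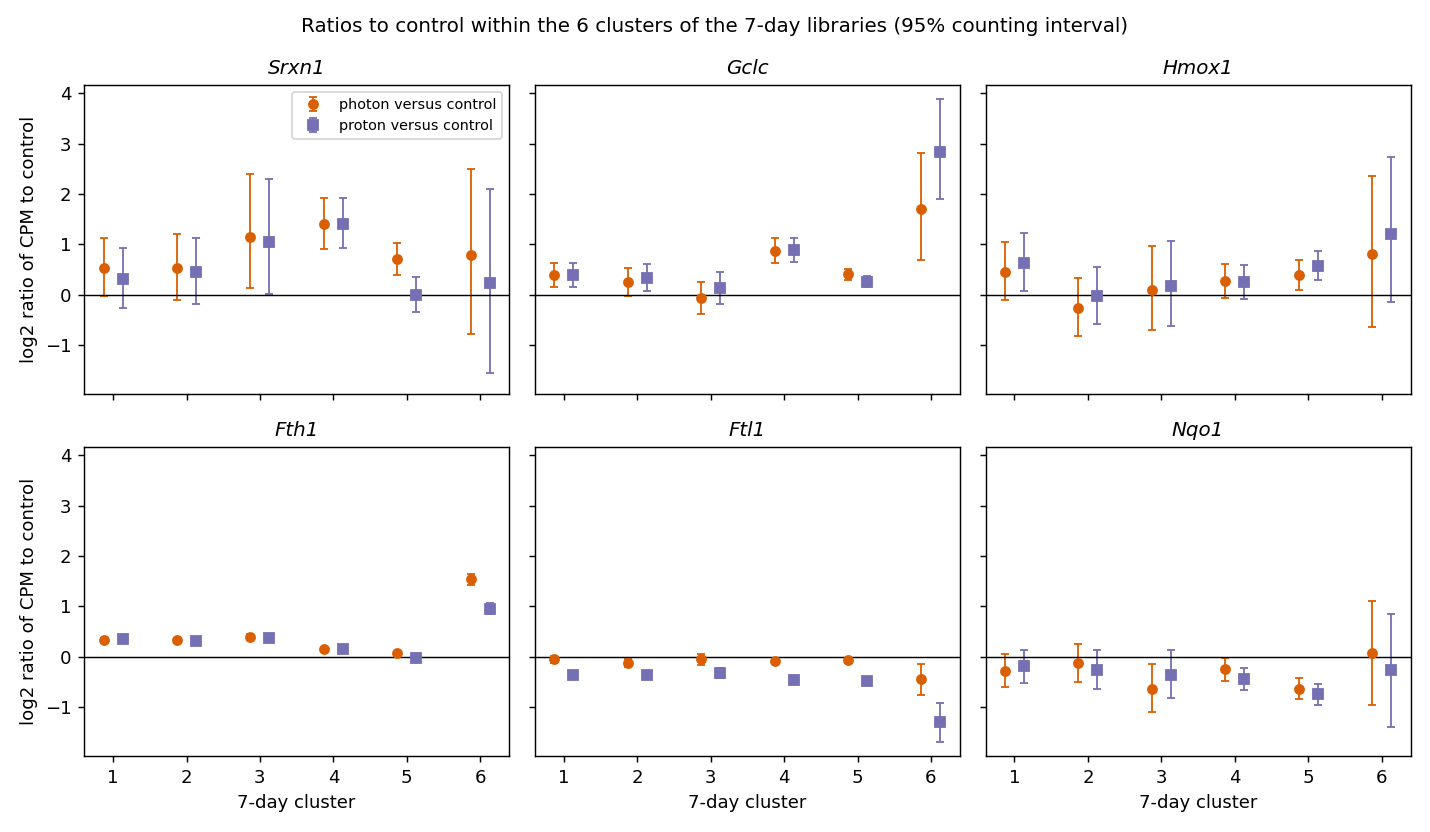
Log2 ratio of CPM to control within each of the 6 clusters of 7-day barcodes (points, photons and protons; bars, 95% counting interval) for 6 of the genes. Ftl1 with protons lies below 0 in all 6 clusters, Srxn1 reaches 1.41 with both beams in cluster 4, and Fth1 and Gclc are farthest above 0 in cluster 6.

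Against the 7-day control, 11-day mSGOs had higher levels of 7 genes and a lower level of 1 past the fold, with all 10 passing the minimum. Of all 6609 genes passing, 65.1% were higher and 10.9% lower, and the median log2 ratio was 0.99 over all genes and 1.41 over the 10, so these counts are close to those of other genes. Slc7a11 was 89.4-fold higher (log2 6.48, 6.22 to 6.76), above 98.9% of genes. The size of this difference depended on the barcodes, at 54.5-fold among those with at least 1% Malat1 and a log2 ratio of 5.25 (4.78 to 5.76) with at least 2500 genes. Gclc followed at 5.91-fold (2.56), Txnrd1 at 4.95-fold (2.31), Fth1 at 3.85-fold (1.95), Hmox1 at 2.84-fold (1.51), Srxn1 at 2.50-fold (1.32) and Prdx1 at 1.99-fold (0.99). Srxn1 fell short of the fold with at least 2500 genes, at 0.38 (-0.05 to 0.81), and under median-of-ratios scaling (0.27), as did Hmox1 under that scaling (0.45). Ftl1 was lower at -0.57, Nqo1 at -0.40 and Gclm at -0.36. With at least 1% Malat1 Ftl1 was at -0.08 and Gclm at -0.60, and with at least 2500 genes they were at -0.29 and -0.78, so the 1 gene past the fold downwards was then Gclm and not Ftl1. Nqo1 was at 0.56 (0.08 to 1.01, 42 UMIs at 11 days) among barcodes under 1% Malat1, the opposite direction, and Prdx1 was at -0.062 under median-of-ratios scaling. That scaling gave 4 genes higher and 3 lower, with Ftl1 at -1.63, Nqo1 at -1.45 and Gclm at -1.41. The shares of all genes under it were not computed, and the 65.1% and 10.9% above belong to CPM. Nqo1 was also past the fold downwards when barcodes were thinned to 1000 UMIs, weighted equally, or scaled without ribosomal and mitochondrial genes. Relative to the median gene, Prdx1 was level (0.0020), and Ftl1 (-1.56), Nqo1 (-1.39) and Gclm (-1.35) lay well below.

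The ratios of this comparison followed gene structure. With 6597 genes split into 4 classes of equal size by total intron length (GENCODE vM39), the median log2 ratio was 0.19, 0.62, 1.24 and 2.33 from the shortest to the longest introns, and 35.4%, 55.5%, 76.2% and 93.3% of genes were higher past the fold. In the comparisons of irradiated libraries with control the medians of the classes lay between 0.03 and 0.14. Slc7a11, with 535574 bases of intron in GENCODE, whose model of this gene runs beyond the RefSeq span given above, belongs to the class of longest introns, and it remained 4.16 above the median of that class. Against their own classes Fth1 was 1.75 above, Hmox1 and Gclc 1.32, Srxn1 1.13, Txnrd1 1.06 and Prdx1 0.37, while Nqo1 was at -1.02, Gclm at -0.98 and Ftl1 at -0.77. The subunits of glutamate-cysteine ligase therefore differed in direction in this comparison, as did the ferritin chains. The part of the counting software was not tested.

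**Figure D4:**
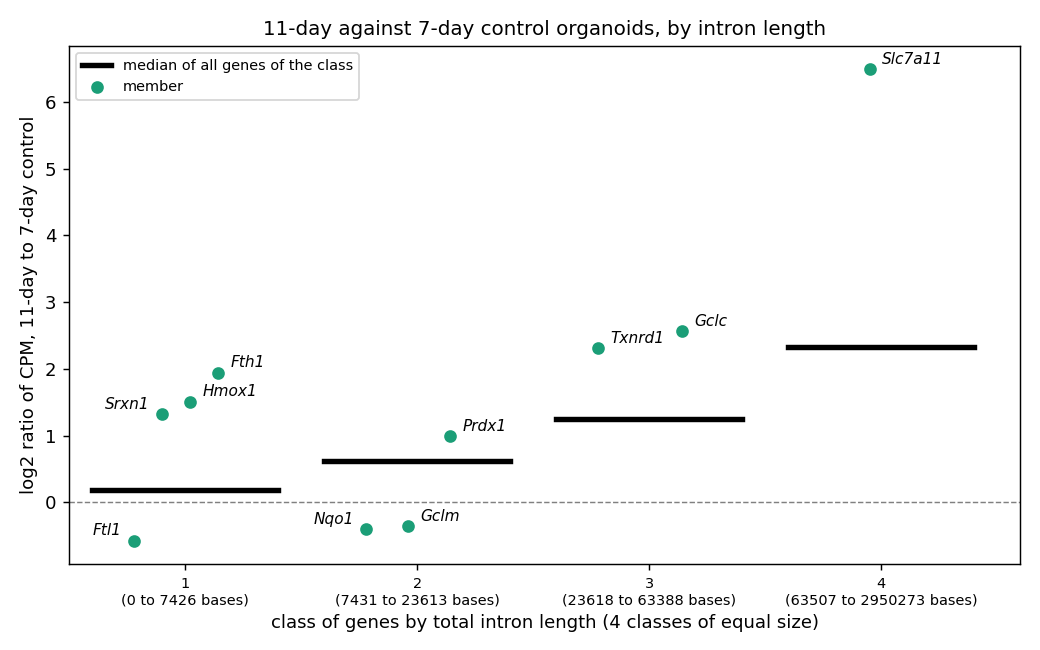
Log2 ratio of CPM, 11-day to 7-day control, for the 10 genes (points) by class of total intron length, with the median of all genes of each class (black line). The medians run from 0.19 to 2.33, and 7 of the 10 genes lie above the line of their class, Slc7a11 by 4.16.

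Within the 11-day library, 9 clusters built without the 10 genes showed a spread for each. Fth1 stood at 20168 in cluster 1, led by Cdo1, Orm3 and Serpina3m, and at 9836 in cluster 4, led by Sprr2d, Psca and Krt6b. Nqo1 ran the other way, at 35.8 CPM in cluster 1 and 83.1 in cluster 4, with 77.8 in the cycling-like cluster 3. Slc7a11 was lowest in that cycling-like cluster at 387 CPM and stood at 988 in cluster 1. Cluster 9, 100 barcodes with a median of 744 UMIs and 11.1% Malat1, had Slc7a11 at 2479 CPM and Gclc at 1513 but Fth1 at only 1945 CPM and Ftl1 at 165 CPM, the lowest of the 9 clusters for both chains.

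In fresh tissue all 8 genes that passed the minimum were lower than in 7-day control mSGOs past the fold, as were 87.6% of 4250 genes, with 6.59% higher. The other 2, Slc7a11 and Srxn1, also lay below. The median log2 ratio was -2.48 over the 10 and -1.87 over all genes. Nqo1 (-8.68, -13.99 to -6.20, from 1 UMI), Gclc (-4.61) and Gclm (-4.37) were far below, Slc7a11 stood at -3.44 and Srxn1 at -3.06, and Prdx1 (-1.89) lay at the median gene. Ftl1 (-1.62), Txnrd1 (-1.28), Fth1 (-0.96) and Hmox1 (-0.76) lay above the median gene, by 0.25, 0.59, 0.91 and 1.11. The sign of these last values depended on the total. Without acinar marker genes in the totals, Hmox1 was 0.42 and Fth1 0.23 higher than in mSGOs, and among the 158 tissue barcodes with at least 1% Malat1 Hmox1 was at 1.78, Fth1 at 1.05, Txnrd1 at 0.67 and Ftl1 at 0.62, while Nqo1 had 0 UMIs. The low levels of Nqo1, Gclc, Gclm, Slc7a11 and Srxn1 kept their direction in all 13 alternatives. In a library of mixed cells, fewer cells of a type and less RNA per cell cannot be told apart.

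Tissue barcodes fell into 11 clusters, and acinar marker genes made up 10.4% to 69.8% of UMIs in each, so secreted-protein RNA was present in every cluster. Cluster 10 held 44 barcodes led by Ccr7, Il12b and Ccl22. It carried 9 macrophage markers, but also 3 erythroid and 3 cycling markers, and was given no single name. Cluster 10 had Fth1 at 16609 CPM, Ftl1 at 3866, Hmox1 at 157 (48 of the 84 UMIs in the library) and Prdx1 at 770. The macrophage-like cluster 4, with 150 barcodes and 6 macrophage markers, had Fth1 at 6341 and Ftl1 at 1315 CPM. Both exceeded the acinar-like cluster 8, where Fth1 was at 332 and Ftl1 at 108 CPM, and the erythroid-like cluster 2, where Fth1 was at 1289 and Ftl1 at 343 CPM. Without acinar genes in the totals, Fth1 was at 18899 CPM in cluster 10, 14473 in cluster 4 and 1100 in cluster 8, so the order held and the gap between clusters 10 and 4 narrowed. Hmox1 had only 3 UMIs in cluster 4.

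In the endothelial-like cluster 9, named from 8 markers, Gclm was at 67.7 CPM (16 UMIs), Gclc at 29.6 (7 UMIs), Txnrd1 at 76.2 (18 UMIs) and Prdx1 at 457 CPM. Acinar genes made up less of this cluster, at 19.4% of UMIs, than of most others, which raises its CPM. Without acinar genes in the totals Gclm was at 84.1, Gclc at 36.8 and Txnrd1 at 94.6 CPM, and Prdx1 at 567 lay below clusters 10 (876), 4 (863) and 5 (661). Cluster 6, endothelial-like from 3 markers, had 1 UMI each of Gclm, Gclc and Txnrd1 and Prdx1 at 159 CPM. Txnrd1 was also at 91.7 CPM (28 UMIs) in cluster 10 and 137 CPM (11 UMIs) in cluster 11. Cluster 9 had the only Nqo1 UMI of the library. Of the 4 Slc7a11 UMIs, 3 were in cluster 11, which held 19 barcodes.

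**Figure D5:**
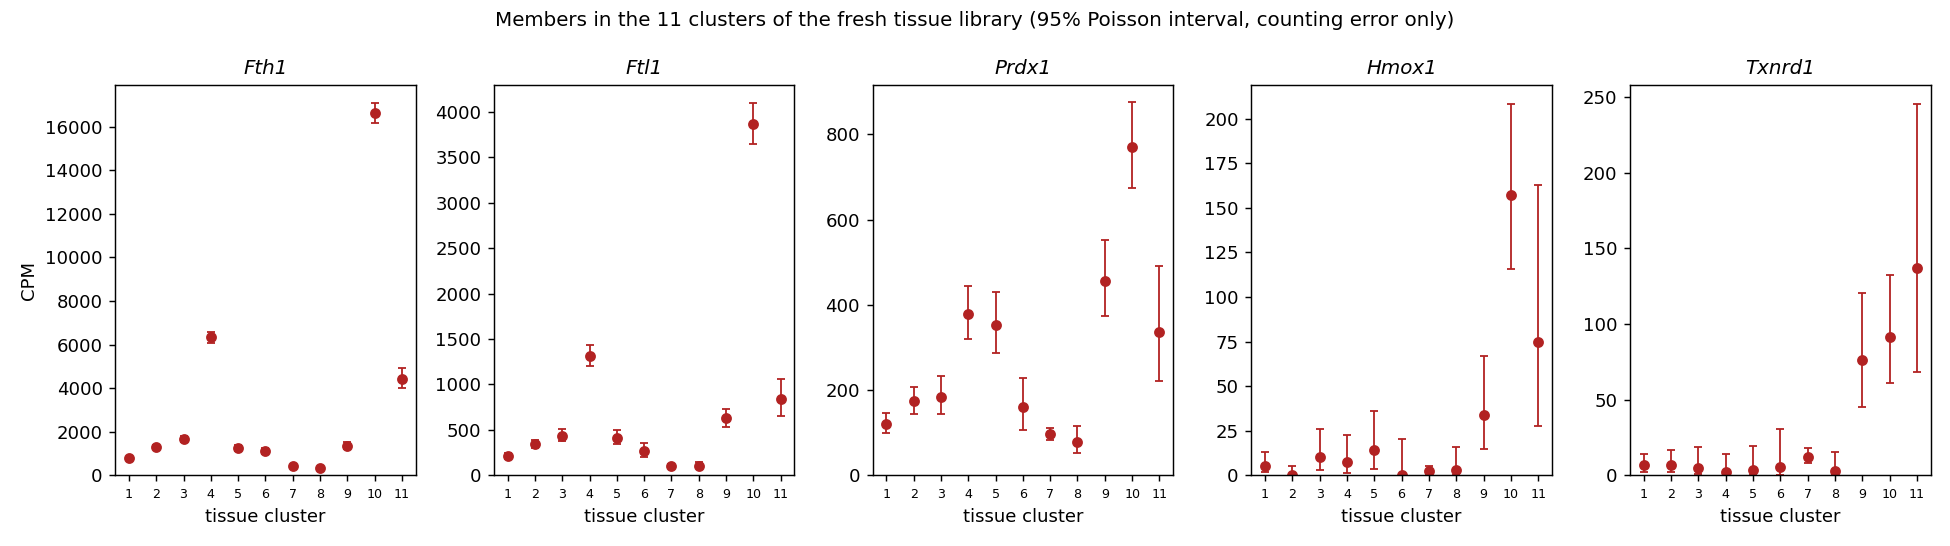
CPM of 5 genes in the 11 clusters of fresh tissue (points, with 95% Poisson interval). Fth1, Ftl1, Prdx1 and Hmox1 are highest in cluster 10, which carried 9 macrophage markers, at 16609, 3866, 770 and 157 CPM. Fth1 and Ftl1 are next highest in the macrophage-like cluster 4.

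How alike the 10 genes behaved was described over 18 profiles, the 6 clusters of 7-day mSGOs in each of the 3 libraries. These profiles share libraries, depth and Malat1 content, so the coefficients carry no test. Pearson correlation was highest between Gclm and Txnrd1 (0.93), Ftl1 and Prdx1 (0.92) and Ftl1 and Nqo1 (0.91), and lowest between Fth1 and Txnrd1 (0.08). The ferritin chains correlated at 0.32, and the subunits of glutamate-cysteine ligase at 0.74. Among 8926 genes the most alike were Ctnnal1 for Txnrd1 (0.99), Ccnd2 for Gclm (0.99), S100a6 for Ftl1 (0.99), Lmo1 for Prdx1 (0.99), Rexo1 for Gclc (0.97), Mdh1 for Nqo1 (0.95), Irgm1 for Srxn1 (0.93), Arpc5l for Fth1 (0.93), Slc35b1 for Hmox1 (0.91) and 2700049A03Rik for Slc7a11 (0.92).

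The wider pathway was read from a list of 119 genes, 118 of them in the gene list. With photons 66 passed the minimum, 5 were higher and 3 lower past the fold, and with protons 67 passed, 5 higher and 6 lower, with medians of 0.01 and 0.05. Over all genes the shares were 4.76% higher and 2.33% lower with photons and 4.91% and 2.53% with protons. Among 17 glutathione genes passing, 2 were higher and 1 lower with photons, and 3 higher and 1 lower with protons. Past the fold with both beams were Gsto1, an omega-class glutathione transferase (0.67 with photons and 0.51 with protons), Gsta3, of the alpha class (0.51 and 0.54), and Ephx1, an epoxide hydrolase (0.62 and 0.51). Several of these values lay close to the limit: Gsta3 with photons remained past it in 4 of 12 alternatives, Ephx1 with protons in 5 and Gsto1 with protons in 7. Lower with both were Gstm1, of the mu class (-0.61 and -0.89), Prdx4, a peroxiredoxin of the secretory pathway (-0.69 and -0.69), and Psat1, of serine synthesis (-0.69 and -0.77). Prdx4 was at -0.29 with photons and -0.28 with protons among barcodes with at least 1% Malat1, short of the fold, and Gstm1 with photons remained past it in 9 of 12 alternatives.

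Direct partners of the 10 genes were read in the same way. Nfe2l2, which encodes NRF2, had log2 ratios of 0.23 and 0.30 with photons and protons, and its inhibitor Keap1 0.04 and 0.08. Slc3a2, the heavy chain that carries Slc7a11 to the membrane, was at 0.02 and 0.20. Gpx4, which uses glutathione to reduce lipid peroxides, was at 0.01 and 0.12, and Txn1, the thioredoxin that Txnrd1 reduces, at -0.30 and -0.35. Tfrc, the receptor for iron uptake, was at 8.23, 5.72 and 5.65 CPM in control, photon and proton (130, 145 and 140 UMIs), with log2 ratios of -0.52 (-0.88 to -0.17) and -0.54 (-0.90 to -0.19). Slc40a1, the iron exporter, had only 27, 24 and 31 UMIs, or 1.71, 0.947 and 1.25 CPM. Neither passed the minimum. Of 7 passing genes of iron and heme handling, 1 was higher with photons and 0 with protons, beside 4.76% and 4.91% of all genes. With at least 1% Malat1, 10 passed, 3 higher with photons and 2 with protons, beside 4.67% and 4.57% of all genes. At 11 days the iron and heme genes had 12 of 17 higher and 1 lower, beside 65.1% and 10.9% of all genes, with Tfrc at 1.86 and Ncoa4, the receptor that brings ferritin to lysosomes, at 0.94.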

How the data were processed

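The deposited files hold raw UMI counts per gene and barcode, which the authors made with Cell Ranger from 10x 3′ libraries. The submitters' processing notes name Cell Ranger 5 and mm10, the file headers name 3.0.1 for the 7-day and tissue libraries and 7.0.0 for the 11-day library, and the methods name GRCm39. These sources differ, and whether intronic reads were counted is not given in the sources used here. Barcodes with at least 200 genes and at most 5% mitochondrial UMIs were kept, without the highest Scrublet scores (scanpy 1.11.5) up to 0.8% per 1000 barcodes, a doublet rule set after seeing the data because the automatic threshold was unstable. UMIs were summed per library, scaled to CPM, and given exact Poisson intervals and log2 ratios with conditional exact binomial intervals at 95%. A count of 0 was set to a floor of 3 UMIs. Recovery was checked on simulated data. No test was made, since every group was a single library. Clusters came from Leiden (0.10.2) on 2000 variable genes, 30 components and 15 neighbours at resolution 0.8, with the 10 genes and the wider list left out, and were named from at least 3 markers. Named genes were the 10, their direct partners and genes of the wider list past the fold with both beams. The 10 genes and all lists were chosen with earlier results of these data known. Intron lengths were matched by gene ID for 30144 of 31053 genes, and promoters and positions are from RefSeq GRCm38.p6. Alternatives are given in the closing section.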

Additional observations from a re-analysis of the deposited data

How the results depend on the processing

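Medians over the 10 genes are given first. With photons the median was 0.088 under median-of-ratios scaling. With protons it was 0.0059 with at least 2500 genes per barcode, 0.024 under median-of-ratios scaling and 0.23 among barcodes under 1% Malat1, a split chosen after seeing the data. Proton against photon it was -0.14 among barcodes with at least 1% Malat1. At 11 days it was 1.19 with at least 2500 genes, 1.09 without ribosomal and mitochondrial genes in the totals, 0.36 under median-of-ratios scaling and 1.16 under 1% Malat1. In tissue it was -3.05 with all deposited barcodes, -0.82 with at least 1% Malat1, -3.04 without ribosomal and mitochondrial genes, -0.80 under median-of-ratios scaling and, chosen after seeing the data, -1.29 without acinar genes. With a Leiden resolution of 0.4 in place of 0.8, 3 of the 10 genes in place of 8 differed at least 2-fold between 7-day clusters. The share of all genes with such a spread was not computed, so neither count is set against other genes. Median-of-ratios scaling moves every gene of a comparison by 1 constant, so the distance of the 10 from the median of all genes did not change (0.097 with photons, where the median of all genes became -0.0093), and the signs that turn under it below do so by that shift. The other causes were not tested.

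Among genes past the fold, direction turned for Srxn1 with protons at 2500 genes (-0.22), for Prdx1 at 11 days under median-of-ratios scaling (-0.062), and in tissue for Hmox1, Txnrd1, Ftl1 and Fth1 with at least 1% Malat1 (1.78, 0.67, 0.62, 1.05) and under median-of-ratios scaling (0.92, 0.40, 0.057, 0.72), and for Hmox1 (0.42) and Fth1 (0.23) without acinar genes. Genes nearer to 0 also changed sign: Nqo1 at 11 days (0.56 under 1% Malat1), Slc7a11 (lowest -0.22) and Gclm (lowest -0.06) with protons, Txnrd1 and Prdx1 with protons (same sign in 6 of 12 alternatives each), Prdx1 with photons (10 of 12), and Nqo1, Gclc (10 of 12 each) and Fth1 (9 of 12) between beams. Of the values of single genes under alternatives, 85 of 120 with photons, 76 of 120 with protons, 96 of 120 between beams, 56 of 120 at 11 days and 69 of 130 in tissue stayed within the counting interval. No paired analysis was possible because each group was 1 library. Depth limits Slc7a11, with 116 to 269 UMIs in the 7-day libraries, and in tissue Slc7a11, Nqo1 and Srxn1, with 4, 1 and 11 UMIs.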
